A study of Homo sapiens with 12 samples.

Results

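The genes described here are 43 type I interferon-stimulated genes, chosen by name among genes that cells switch on when they sense interferon. The choice was made with earlier results of these data known. All 43 were found in a table of 17589 genes measured by RNA-seq in YT cells, a human natural killer-like (NK-like) lymphoid line that was labelled as such. Of these, 41 passed a filter on low counts and were tested among 13657 genes, while IFIT2 and IFI27 had too few counts. The study put lentiviral constructs into YT cells under the constitutive hEF1A promoter and sorted eGFP-positive cells for expansion, so every group was a bulk pool and carried a vector. There were 4 groups of 3 libraries. CTRL carried eGFP alone, hnCD16 carried a high-affinity, non-cleavable CD16, and FR1 and FR2 carried fusion receptors that joined the outer part of hnCD16 to 2B4, DAP10 and CD3ζ (FR1) or to DAP10 and CD3ζ (FR2). The study describes these cells as sequenced without any stimulus. The comparison asks how far the interferon-stimulated genes differed between cells with the receptors and cells with the controls.

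Type I interferons bind a receptor pair on the cell surface, IFNAR1 and IFNAR2, which switches on the kinases JAK1 and TYK2. The signal leads to a complex called ISGF3, which holds STAT2 and IRF9 and binds interferon-stimulated response elements near the start of its target genes. The products bind or degrade viral RNA, block viral entry and budding, tag proteins with ISG15, or shut the signal down again. NK cells answer type I interferon with stronger killing, and many of the same genes also keep a basal level without added interferon.

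The response element is a short repeat, and its core was searched here as GAAANNGAAA, or TTTCNNTTTC on the other strand, in 300 bases around each gene's RefSeq start (250 before it and 50 after it, GRCh38.p14). RefSeq held such a promoter for 35 of the 43 genes. The core was present in 22 of the 35 (62.9%), against 996 of all 27305 promoters (3.65%). Overlapping matches were counted separately. A match describes the letters only. The stretches below end before the RefSeq start site, and each core that lies wholly inside a stretch stands in capitals. Another IFIT5 core, at -4 from that site, runs past the end of its stretch and is in lower case. The IFIT1 stretch runs past the gene start given below, which is that of GENCODE. They are shown because the same core lies in front of genes that were lower in FR1 and FR2 (IFIT1, HERC5, LGALS3BP and IFI44) and of genes that were higher (IFIT5, BST2, PARP14 and IFI6).
IFIT1 (chr10:89392482-89392554, plus strand): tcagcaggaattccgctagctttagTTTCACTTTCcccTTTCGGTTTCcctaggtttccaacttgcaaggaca
HERC5 (chr4:88456969-88457034, plus strand): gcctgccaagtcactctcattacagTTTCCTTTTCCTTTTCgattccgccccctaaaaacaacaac
LGALS3BP (chr17:78979947-78980006, minus strand): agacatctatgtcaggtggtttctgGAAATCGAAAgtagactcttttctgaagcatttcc
IFI44 (chr1:78649746-78649788, plus strand): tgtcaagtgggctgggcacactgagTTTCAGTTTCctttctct
IFIT5 (chr10:89414498-89414567, plus strand): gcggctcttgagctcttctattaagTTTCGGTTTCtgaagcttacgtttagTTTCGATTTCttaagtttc
BST2 (chr19:17405720-17405785, minus strand): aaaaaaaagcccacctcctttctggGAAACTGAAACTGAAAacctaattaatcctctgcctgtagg
PARP14 (chr3:122680785-122680838, plus strand): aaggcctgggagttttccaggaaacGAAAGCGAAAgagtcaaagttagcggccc
IFI6 (chr1:27672314-27672373, minus strand): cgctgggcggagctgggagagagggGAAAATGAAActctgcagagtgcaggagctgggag

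The core was present in 9 of 15 promoters of genes that rose in FR1 against CTRL (60.0%), in 6 of 9 of genes that fell (66.7%) and in 6 of 10 of genes without a call (60.0%). It was also present in that of IFI27, which was not tested. Promoters without a match included those of CMPK2 and RSAD2, which fell, and of ADAR, IFI16, IRF9, IFI35 and SAMD9L, which rose.

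Libraries held 17714550 to 18729013 gene counts, and values are given as CPM, counts scaled to library size with TMM factors. FCGR3A, the gene of CD16, was at 0 counts throughout CTRL and had 453 to 480 counts with hnCD16, 559 to 567 with FR1 and 1012 to 1132 with FR2. This matches the label of CTRL. It cannot tell hnCD16, FR1 and FR2 from each other, since all of these carry the outer part of CD16. Gene positions below are those of GENCODE on GRCh38. The groups differed in far more than the construct. Summed over the 8 markers of NK cells, CTRL and hnCD16 stood at 58.1 to 69.2 CPM, FR1 at 4007 to 4213 and FR2 at 3888 to 3993. GZMB, the cytotoxic protease, had 10 to 17 counts in CTRL and hnCD16 but 46803 to 49153 in FR1 and 44542 to 45613 in FR2, and TBX21 and NCAM1 had at most 4 counts in CTRL and hnCD16. Summed over the 5 T cell markers, CTRL and hnCD16 stood at 645 to 788 CPM, and FR1 and FR2 at 35 to 42.1. CD3D, a subunit of the T cell receptor complex, had 7757 to 9903 counts in CTRL and hnCD16 and 0 to 3 in FR1 and FR2. KLRD1 (202 to 267 counts), NKG7 (177 to 256 counts) and EOMES (115 to 205 counts) were present in CTRL and hnCD16. CD7, another of the 8 markers, went the other way, with 535 to 646 counts in CTRL and hnCD16 and 13 to 25 in FR1 and FR2. However, in CTRL and hnCD16 GZMB, PRF1, TBX21 and NCAM1 were at or near 0 and CD3D, CD3E and CD3G were high. This goes against the NK-like label for these libraries. The markers did not all split this way. NCAM1 was low in FR1 and FR2 too (21 to 42 counts), and KLRD1 was nearly level (225 to 282 counts there). CD4 had 78 to 186 counts and CD8A 12 to 27 in CTRL and hnCD16, and CD3E kept 595 to 717 in FR1 and FR2. Summed B cell markers reached 9.08 to 14.4 CPM in CTRL and hnCD16 and 0.112 to 0.405 in FR1 and FR2, over the 3 genes of that list analysed here. Summed monocyte markers lay at 9.73 to 10.5 CPM in FR2 and 5.38 to 7.69 in FR1, beside 4.35 to 6.17 in CTRL and hnCD16. In FR2, CSF1R had 5.45 CPM, beside 1.96 in FR1, 0.923 in CTRL and 0.647 in hnCD16. Summed markers of plasmacytoid dendritic cells lay at 13.9 to 18.4 CPM in CTRL and hnCD16 and 23.2 to 29.6 in FR1 and FR2, mostly from TCF4 (26.6 CPM in FR1 and 22.8 in FR2, beside 14.9 in CTRL and 15 in hnCD16). The defining markers CD14, S100A8, LILRA4 and CLEC4C were at 0 to 5 counts in every library. The marker split and the receptors separate the same libraries, so their parts in the results below cannot be told apart. In bulk samples, fewer cells that express a gene and less RNA per cell cannot be told apart either. Nothing in the labels says that the 3 libraries of a group were separate cultures, so p-values measure the spread between these libraries, which may be technical.

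The interferon-stimulated genes did not move as 1 block. In FR1 and FR2 some were many times higher than in CTRL and hnCD16, others were nearly lost, and others were about level. A gene was called when its log2 fold change was at least 1 in either direction with an adjusted p of at most 0.05 (edgeR quasi-likelihood test, Benjamini-Hochberg over 13657 genes). In FR1 against CTRL, 30 of 41 genes were called (73.2%), beside 38.0% of all genes tested. Of these, 19 were higher, beside 18.3% of all genes, and 11 were lower, beside 19.8%. In FR2 against CTRL, 32 were called (78.0%, beside 38.2% of all genes), 21 higher (beside 18.7%) and 11 lower (beside 19.6%). In FR1 against hnCD16, 31 were called (75.6%, beside 38.3%), 19 higher (beside 18.7%) and 12 lower (beside 19.6%). In FR2 against hnCD16, 32 were called (78.0%, beside 39.5%), 21 higher (beside 19.6%) and 11 lower (beside 19.8%). The share called among the 41 was thus larger than among all genes in each, and the excess was mostly on the higher side. The median absolute log2 fold change of the 41 was 1.78 to 1.84 in these comparisons, beside 0.69 to 0.73 over all genes. The signed medians were 0.89, 1.08, 0.97 and 1.02, beside -0.03, -0.04, -0.01 and -0.03 over all genes.

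**Figure D1:**
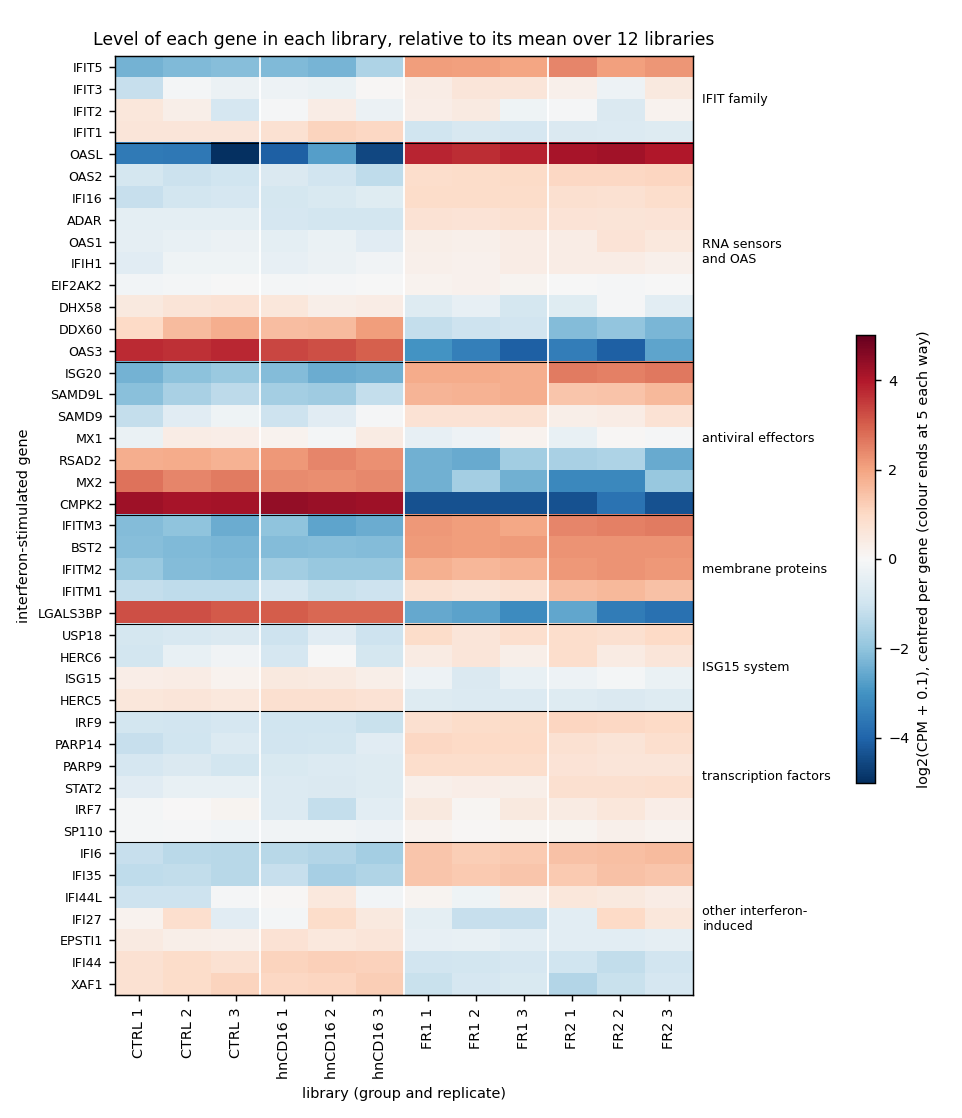
Colour shows each gene's log2(CPM + 0.1) in each of the 12 libraries, minus the gene's mean over the 12 libraries, with rows grouped by role. OASL, IFIT5 and BST2 are high in the 6 FR1 and FR2 libraries, whereas OAS3, CMPK2, MX2 and LGALS3BP are high in the 6 CTRL and hnCD16 libraries.

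FR1 against CTRL and FR2 against hnCD16 share no library. Of 19 genes higher in the first and 21 higher in the second, 17 were higher in both (89.5% and 81.0% of each list), beside 86.3% and 80.4% for all genes. Of the 11 lower in each, 10 were lower in both (90.9%), beside 85.7% and 85.3% for all genes. No gene of the set was called in opposite directions. Over all genes, 0 of the 2498 higher and 1 of the 2698 lower in FR1 against CTRL were. For FR2 against CTRL and FR1 against hnCD16, 18 genes were higher in both (85.7% of 21 and 94.7% of 19) and 11 lower in both (all 11 and 91.7% of 12), beside 88.9% of each list for all genes that were higher and 89.4% and 89.1% for all that were lower. The shares of the set were thus near those of all genes.

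**Figure D2:**
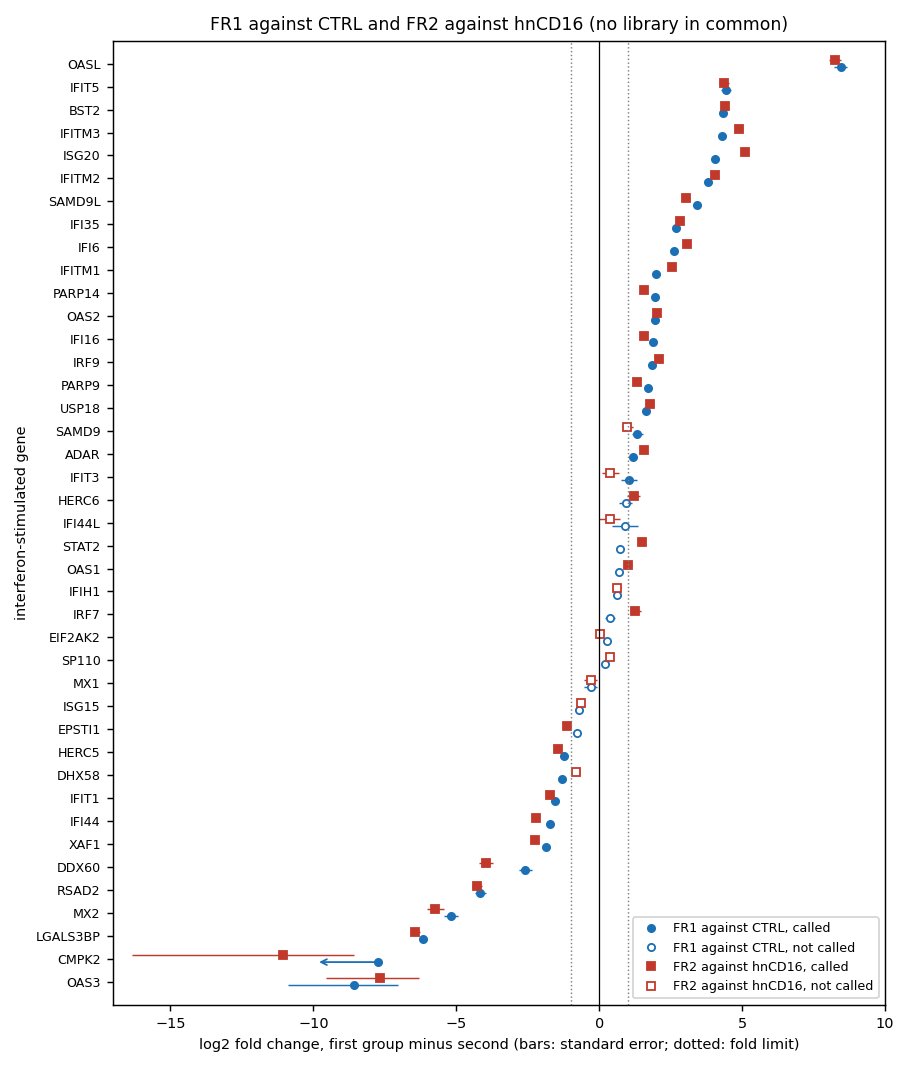
Points give the log2 fold change of each of the 41 genes with its standard error, in FR1 against CTRL (circles) and in FR2 against hnCD16 (squares), filled where called. For CMPK2 and OAS3, which had 0 to 3 counts in FR1 and FR2, the points are count ratios with 95% counting intervals, and the arrow marks a bound for CMPK2, which had no count in FR1. OASL lies farthest to the right at 8.45 and 8.24.

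The ligands analysed here were at or near 0 in all groups. Of 20 genes of type I and III interferons, 8 were analysed here and none passed the filter on low counts. IFNB1 was not among the 8, so nothing is said of its level. IFNL2 and IFNL3 had at most 5 and 6 counts in a CTRL or hnCD16 library and 0 in FR1 and FR2. IFNL1, a type III interferon, had 4 to 18 counts in CTRL and hnCD16, 2 to 3 in FR2 and 0 in FR1, and none of the 5 type I interferon genes analysed here (IFNA2, IFNA5, IFNA21, IFNE and IFNW1) exceeded 1 count in a library. Among the receptor and signal genes, JAK1 rose by 1.05 to 1.13 log2 units (SE 0.0526 to 0.0528, largest edgeR adjusted p = 3.04e-12). IL10RB, a receptor chain for type III interferons, rose against CTRL, with 1.05 (SE 0.0631, edgeR adjusted p = 4.30e-11) in FR1 and 1.24 (SE 0.0627, edgeR adjusted p = 3.29e-12) in FR2, and with 0.71 and 0.9 against hnCD16 it was not called. The receptor chains IFNAR1 and IFNAR2 were not called, with log2 fold changes of 0.06 to 0.44 in FR1 against CTRL.

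STAT2 and IRF9, which carry the signal to the nucleus, were higher. STAT2, a transcription factor (chr12:56341597-56360203, minus strand), was read at 57.1, 60.2 and 59.9 CPM in FR1 and 84.9, 84.1 and 87.3 in FR2, beside 32.7, 37.5 and 37.2 in CTRL and 30.2, 29.4 and 30.7 in hnCD16. The FR1 and FR2 libraries lay above all CTRL and hnCD16 libraries, and FR2 lay above FR1. STAT2 was called in FR2 against CTRL, 1.25 (SE 0.0554, edgeR adjusted p = 4.80e-13), and against hnCD16, 1.5 (SE 0.0567, edgeR adjusted p = 4.56e-14), but in FR1 its changes of 0.72 and 0.97 were under the fold limit. Without FR1 replicate 1 the latter was 1.01 and called. IRF9, the DNA-binding part of ISGF3 (chr14:24161234-24168043, plus strand), was read at 4.24, 4.15 and 4.53 CPM in the CTRL libraries, 4.08, 4.05 and 3.77 in those of hnCD16, 14.5, 15.8 and 16.2 in FR1 and 17.5, 17 and 16.5 in FR2. It rose in each comparison across the pairs, with log2 fold changes of 1.84 to 2.1 (SE 0.0872 to 0.0909, largest edgeR adjusted p = 1.56e-12). PARP9, which works with the ubiquitin ligase DTX3L, was read at 134, 136 and 136 CPM in FR1 and 117, 111 and 113 in FR2, beside 41.3, 45 and 39.4 in CTRL and 43.4, 46.2 and 47.2 in hnCD16. Its log2 fold changes were 1.32 to 1.69 (SE 0.0552 to 0.0554, largest edgeR adjusted p = 2.17e-13). PARP14, a mono-ADP-ribosyltransferase, was read at 24.4, 27.1 and 33.6 CPM in the CTRL libraries, 27.9, 28.7 and 36.3 in those of hnCD16, 111, 109 and 107 in FR1 and 90.7, 85.3 and 96.8 in FR2. It rose by 1.55 to 1.94 log2 units (SE 0.0996 to 0.1, largest edgeR adjusted p = 1.01e-10), with no overlap between the pairs. IRF7, which amplifies interferon production, had means of 2.63 ± 0.193 CPM, 1.47 ± 0.349 CPM, 3.4 ± 0.539 CPM and 3.54 ± 0.294 CPM (SD, n = 3) in CTRL, hnCD16, FR1 and FR2, respectively. It was called against hnCD16 (1.2 in FR1 and 1.26 in FR2) and not against CTRL (0.37 and 0.43). SP110, a nuclear body protein, was not called, with log2 fold changes of 0.21 to 0.38.

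The IFIT genes, whose proteins bind foreign 5′ ends of RNA, split within 1 cluster on chromosome 10. IFIT1 (chr10:89392546-89406487, plus strand) was read at 1.56, 1.79 and 1.77 CPM in FR1 and 1.9, 1.98 and 2 in FR2, beside 5.01, 4.95 and 4.98 in CTRL and 5.55, 7.08 and 6.64 in hnCD16. It fell in FR1 and FR2, with log2 fold changes of -1.34 to -1.91 (SE 0.139 to 0.148, largest edgeR adjusted p = 1.24e-07), and no FR library reached a CTRL or hnCD16 library. IFIT5 (chr10:89414568-89421605, plus strand) was read at 0.613, 0.7 and 0.746 CPM in the CTRL libraries, 0.707, 0.648 and 1.17 in those of hnCD16, 15.5, 15.1 and 14.5 in FR1 and 20.2, 15.1 and 17 in FR2. It rose, with log2 fold changes of 4.15 to 4.65 (SE 0.17 to 0.178, largest edgeR adjusted p = 2.31e-13). The core matches printed above lie in front of both. IFIT3 was near its detection limit, with 10 to 34 counts over the 12 libraries, and was called in FR1 against CTRL alone, 1.05 (SE 0.278, edgeR adjusted p = 0.00228). Without CTRL replicate 1 that change was 0.78 and not called. IFIT2 had 3 to 11 counts a library and was not tested.

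Of 10 RNA and DNA sensors and OAS genes, 4 rose and 3 fell in FR1 against CTRL, beside 18.3% higher and 19.8% lower of all genes. The oligoadenylate synthetases make a messenger that switches on RNase L, and OASL is a relative without that activity that boosts RIG-I. OASL (chr12:121017763-121039246, minus strand) had 863, 799 and 899 counts in FR1 and 1096, 1172 and 999 in FR2, beside 4, 4 and 0 in CTRL and 2, 8 and 1 in hnCD16. It went from near 0 to 799 to 1172 counts, and its log2 fold changes were 7.91 to 8.77 (SE 0.208 to 0.223, largest edgeR adjusted p = 4.38e-16). OAS3 (chr12:112938051-112976460, plus strand) went the other way, with 2, 1 and 0 counts in FR1 and 1, 0 and 3 in FR2, beside 441, 427 and 461 in CTRL and 313, 292 and 253 in hnCD16. The count ratio of CTRL to FR1 was 387 (95% counting interval 132 to 1878) and that of hnCD16 to FR2 was 204 (95% counting interval 79.4 to 751), and these intervals cover counting error only. OAS2 (chr12:112978395-113011723, plus strand) was read at 18.2, 18.7 and 19.1 CPM in FR1 and 19.9, 20.3 and 20.6 in FR2, beside 5.21, 4.55 and 4.83 in CTRL and 5.88, 5.02 and 4.04 in hnCD16. It rose by 1.9 to 2.06 log2 units (SE 0.0999 to 0.102, largest edgeR adjusted p = 7.81e-12). OAS1 was read at 4.19, 4.35 and 4.58 CPM in the CTRL libraries, 4.03, 4.48 and 3.77 in those of hnCD16, 7.06, 6.76 and 7.31 in FR1 and 7.44, 9.17 and 8.29 in FR2. Its FR libraries lay above the others, but it was called in FR2 against hnCD16 alone, 1.02 (SE 0.114, edgeR adjusted p = 2.19e-07), and without hnCD16 replicate 3 or FR2 replicate 2 that change was 0.96 or 0.94. Without FR2 replicate 1 it also reached the limit in FR2 against CTRL.

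DDX60, a helicase that aids RIG-I (chr4:168216291-168318883, minus strand), was read at 3.07, 3.47 and 3.6 CPM in FR1 and 1.51, 1.75 and 1.37 in FR2, beside 14.2, 21.6 and 25.3 in CTRL and 20.7, 21.7 and 30.6 in hnCD16. DDX60 fell, with log2 fold changes of -2.59 to -3.97 (SE 0.217 to 0.255, largest edgeR adjusted p = 5.35e-09). DHX58, the regulator LGP2, was read at 7.31, 8.21 and 8.71 CPM in the CTRL libraries, 7.78, 6.43 and 6.69 in those of hnCD16, 3.3, 3.82 and 2.74 in FR1 and 3.41, 4.92 and 3.55 in FR2. It was lower in every FR library, and was called in 3 of the 4 comparisons, with -1.3 in FR1 against CTRL and -0.81, under the limit, in FR2 against hnCD16. Its change in FR2 against CTRL was under the limit without CTRL replicate 3 (-0.95), FR2 replicate 1 (-0.92) or FR2 replicate 3 (-0.95), and so was that in FR1 against hnCD16 without FR1 replicate 3 (-0.97) or hnCD16 replicate 1. IFI16, a sensor of nuclear and cytoplasmic DNA (chr1:158999968-159055155, plus strand), was read at 1049, 1054 and 1069 CPM in FR1 and 976, 955 and 1029 in FR2, beside 253, 296 and 313 in CTRL and 306, 334 and 366 in hnCD16. It rose by 1.56 to 1.88 log2 units (SE 0.0728 to 0.0735, largest edgeR adjusted p = 1.04e-12). ADAR, which edits adenosines in double-stranded RNA, was read at 222, 223 and 218 CPM in the CTRL libraries, 174, 164 and 162 in those of hnCD16, 503, 490 and 520 in FR1 and 491, 487 and 492 in FR2. It rose, with log2 fold changes of 1.15 to 1.6 (SE 0.0439 to 0.0446, largest edgeR adjusted p = 5.66e-14). Against CTRL, its call depended on the processing. Limma on TPM gave 0.96 to 0.97 in FR1 and 0.93 to 0.94 in FR2, under the limit. Scaling by library size alone put the change in FR1 just under the limit. IFIH1, the sensor MDA5, was not called, with log2 fold changes of 0.59 to 0.66. EIF2AK2, the kinase PKR that halts translation, had 157 ± 5.19 CPM in FR1 and 136 ± 2.75 CPM in FR2, beside 130 ± 6.48 CPM in CTRL and 134 ± 3.27 CPM in hnCD16 (SD, n = 3) and was not called.

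ADAR has a constitutive and an inducible promoter, and its long p150 form comes from the inducible one. The transcript NM_001111 is 1 of several that code for proteins of p150 length, so its share is not that of p150 as a whole. It held 1.3% ± 2.23 of ADAR's expected counts in FR1 and 9.62% ± 5.45 in FR2, beside 7.12% ± 4.12 in CTRL and 1.98% ± 3.42 in hnCD16 (SD, n = 3). RSEM divided the reads among 13 ADAR transcripts, and within hnCD16 this share ranged from 0 to 5.92%. No difference could be shown (exact permutation tests, two-sided, 6 comparisons, p of 0.2 to 1.0, adjusted p of 0.3 to 1.0, and 0.1 the smallest that 3 against 3 allows).

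**Figure D3:**
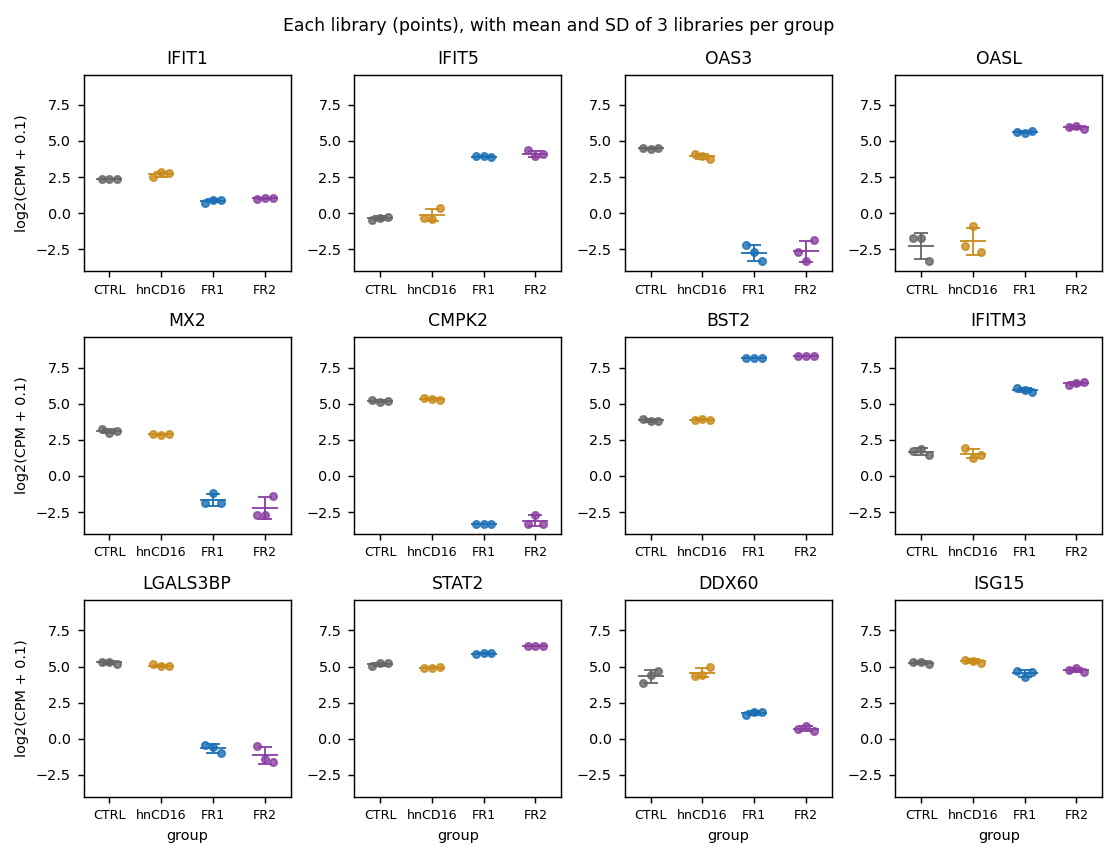
Points are the 12 libraries of each of 12 genes on a log2(CPM + 0.1) scale, by group, with the mean and SD of 3 libraries. IFIT5, OASL, BST2, IFITM3 and STAT2 are higher in FR1 and FR2, IFIT1, OAS3, MX2, CMPK2, LGALS3BP and DDX60 are lower, and ISG15 is lower by less than the fold limit.

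Among the antiviral effectors, CMPK2, a mitochondrial nucleotide kinase (chr2:6840570-6866635, minus strand), had 0, 0 and 0 counts in FR1 and 0, 1 and 0 in FR2, beside 758, 704 and 725 in CTRL and 776, 738 and 717 in hnCD16. It was detected in every CTRL and hnCD16 library and in 1 FR library, by 1 count. Against the level that 3 counts per library allow, it was at least 212-fold higher in CTRL and at least 232-fold higher in hnCD16 than in FR1. The ratio of CTRL to FR2 was 1944 (95% counting interval 349 to 76818). RSAD2, or viperin, whose gene overlaps that of CMPK2 on the other strand (chr2:6865557-6898239, plus strand), was read at 0.579, 0.52 and 0.971 CPM in FR1 and 1.06, 1.13 and 0.515 in FR2, beside 12.6, 12.8 and 11.9 in CTRL and 16.1, 19.2 and 17.5 in hnCD16. RSAD2 fell, with log2 fold changes of -3.77 to -4.66 (SE 0.171 to 0.19, largest edgeR adjusted p = 1.32e-12). Strand use in the counting is not given in the sources used here, so reads from the overlap of the pair cannot be assigned with certainty. MX2, which blocks nuclear import of viruses (chr21:41361999-41409393, plus strand), had 3, 6 and 3 counts in FR1 and 1, 1 and 5 in FR2, beside 182, 155 and 176 in CTRL and 135, 132 and 142 in hnCD16. MX2 fell, with log2 fold changes of -4.95 to -5.95 (SE 0.246 to 0.281, largest edgeR adjusted p = 4.36e-12). Its neighbour MX1 was not called, with 2.79 ± 0.742 CPM in CTRL and 2.26 ± 0.527 CPM in FR1 (SD, n = 3).

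The other effectors were higher. ISG20, an RNA exonuclease (chr15:88635670-88656483, plus strand), was read at 0.715, 0.901 and 1.04 CPM in the CTRL libraries, 0.816, 0.648 and 0.691 in those of hnCD16, 14.9, 15 and 14.5 in FR1 and 25.1, 23.6 and 25.5 in FR2. It rose by 4.05 to 5.09 log2 units (SE 0.116 to 0.132, largest edgeR adjusted p = 2.68e-15), and FR2 lay above FR1. SAMD9L, which restrains translation and proliferation (chr7:93130056-93148385, minus strand), was read at 78.9, 82.9 and 86.8 CPM in FR1 and 64, 66.2 and 75.8 in FR2, beside 5.67, 7.8 and 9.9 in CTRL and 7.4, 7.18 and 10.8 in hnCD16. It rose by 3.02 to 3.41 log2 units (SE 0.138 to 0.139, largest edgeR adjusted p = 8.49e-13). SAMD9 was read at 15.7, 24.2 and 30.9 CPM in the CTRL libraries, 17.5, 23.9 and 34.5 in those of hnCD16, 59.8, 58.4 and 60.2 in FR1 and 44.4, 46.8 and 58.4 in FR2. The FR libraries lay above the others, and SAMD9 was called in 3 of the 4 comparisons, with 1.33 in FR1 against CTRL and 0.98, not called, in FR2 against hnCD16. In CTRL and hnCD16 it also spread widely, the highest library at 1.97 and 1.98 times the lowest, against a median of 1.14 and 1.19 for genes of the set above 1 CPM. Leaving out CTRL replicate 1 or FR2 replicate 3 put its change in FR2 against CTRL at 0.85 or 0.95, under the limit. Leaving out hnCD16 replicate 3, FR2 replicate 1 or FR2 replicate 2 put the change in FR2 against hnCD16 at 1.27, 1.09 or 1.02, and called.

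Of 5 membrane and secreted proteins, 4 rose and 1 fell in each of the 4 comparisons across the pairs, beside 18.3% to 19.6% higher and 19.6% to 19.8% lower of all genes. BST2, or tetherin, which holds budding virus at the cell surface (chr19:17402939-17405630, minus strand), was read at 290, 286 and 290 CPM in FR1 and 316, 317 and 316 in FR2, beside 15.1, 14.2 and 13.6 in CTRL and 14.6, 15.2 and 14.8 in hnCD16. It rose by 4.28 to 4.47 log2 units (SE 0.0533 to 0.0534, largest edgeR adjusted p = 2.10e-20), with little spread inside any group. The IFITM proteins block fusion of virus with the cell membrane. IFITM1 (chr11:310041-315272, plus strand) was read at 77.9, 73.3 and 73.3 CPM in the CTRL libraries, 99.2, 82.5 and 86.2 in those of hnCD16, 300, 278 and 301 in FR1 and 523, 547 and 498 in FR2. IFITM2 (chr11:303655-309397, plus strand) was read at 371, 339 and 356 CPM in FR1 and 488, 511 and 478 in FR2, beside 29.3, 24 and 23.3 in CTRL and 31.7, 28.6 and 28.6 in hnCD16. IFITM3 (chr11:319676-329475, minus strand) was read at 3.22, 3.6 and 2.59 CPM in the CTRL libraries, 3.64, 2.32 and 2.6 in those of hnCD16, 66.9, 62.7 and 56.6 in FR1 and 79.9, 85.2 and 90.9 in FR2. The pairs did not overlap for any of these, and FR2 lay above FR1 in each. IFITM1 rose by 1.72 to 2.8 log2 units (SE 0.0646 to 0.0665, largest edgeR adjusted p = 4.89e-14). IFITM2 rose by 3.58 to 4.27 log2 units (SE 0.0753 to 0.0771, largest edgeR adjusted p = 1.22e-17). IFITM3 rose by 4.3 to 4.9 log2 units (SE 0.114 to 0.12, largest edgeR adjusted p = 4.11e-16). IFITM1, IFITM2 and IFITM3 are paralogs, IFITM2 and IFITM3 close ones, and RSEM divides reads that genes share. The split among the IFITM genes is therefore uncertain. How many reads they shared was not measured. LGALS3BP, a secreted glycoprotein (chr17:78971238-78979947, minus strand), was read at 0.636, 0.578 and 0.4 CPM in FR1 and 0.616, 0.283 and 0.229 in FR2, beside 40.3, 40.5 and 36.3 in CTRL and 35.5, 32.1 and 32.2 in hnCD16. LGALS3BP fell, with log2 fold changes of -5.93 to -6.67 (SE 0.148 to 0.161, largest edgeR adjusted p = 1.85e-16), with no overlap between the pairs.

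The ISG15 system divided too. ISG15, the ubiquitin-like modifier, was read at 39.3, 40.3 and 35.5 CPM in the CTRL libraries, 44.2, 42.5 and 38.2 in those of hnCD16, 26.2, 19 and 24.6 in FR1 and 26.4, 29.3 and 25.1 in FR2. Every FR library was below every CTRL and hnCD16 library, but the log2 fold changes of -0.51 to -0.84 were under the fold limit (adjusted p of at most 9.74e-05, edgeR). HERC5, the main human ligase for ISG15 (chr4:88457119-88506163, plus strand), was read at 32.6, 31.7 and 31.3 CPM in FR1 and 31.8, 30.1 and 31.9 in FR2, beside 74.4, 77.6 and 73.1 in CTRL and 86.9, 89 and 82.5 in hnCD16. HERC5 fell, with log2 fold changes of -1.24 to -1.46 (SE 0.0518 to 0.0519, largest edgeR adjusted p = 2.38e-13). USP18, which removes ISG15 and shuts off IFNAR2 signalling (chr22:18150118-18177397, plus strand), was read at 4.29, 4.55 and 4.83 CPM in the CTRL libraries, 3.86, 5.35 and 3.88 in those of hnCD16, 15.2, 12.4 and 14.3 in FR1 and 14.7, 14 and 16.3 in FR2. It rose by 1.62 to 1.78 log2 units (SE 0.121 to 0.125, largest edgeR adjusted p = 1.06e-09). RNA of the ligase was thus lower and RNA of the protease higher in the same libraries. Tagging of proteins with ISG15 was not measured. HERC6, a relative of HERC5, was called in FR2 alone, with 1.13 against CTRL and 1.2 against hnCD16. In FR1 its changes were 0.93 against CTRL and just under the limit against hnCD16. It had 34 to 113 counts a library, and single libraries changed its calls. In FR1 against CTRL it was called without CTRL replicate 3 (1.09) or FR1 replicate 3 (1.01). In FR1 against hnCD16 it was called without hnCD16 replicate 2 (1.35), FR1 replicate 1 (1.02) or FR1 replicate 3 (1.07). In FR2 against CTRL it was not called without CTRL replicate 1 (0.94) or FR2 replicate 1 (just under the limit).

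Among the other induced genes, IFI6, an inhibitor of cell death in mitochondria (chr1:27666064-27672212, minus strand), was read at 46.1, 41.6 and 43.9 CPM in FR1 and 49.1, 50.6 and 52.7 in FR2, beside 7.97, 6.85 and 6.62 in CTRL and 6.64, 6.32 and 5.31 in hnCD16. It rose by 2.62 to 3.06 log2 units (SE 0.0809 to 0.085, largest edgeR adjusted p = 3.35e-15). IFI35, which binds the cofactor NMI (chr17:43006740-43014456, plus strand), was read at 4.8, 5.05 and 4.43 CPM in the CTRL libraries, 5.22, 3.67 and 4.14 in those of hnCD16, 30.8, 29.4 and 31.2 in FR1 and 29.8, 32.6 and 31.2 in FR2. It rose by 2.68 to 2.84 log2 units (SE 0.0929 to 0.0961, largest edgeR adjusted p = 1.60e-14). IFI44 (chr1:78649796-78664078, plus strand) was read at 7.12, 7.4 and 7.77 CPM in FR1 and 7.05, 6 and 7.26 in FR2, beside 23.9, 26.8 and 23.9 in CTRL and 30.8, 32.2 and 31.5 in hnCD16. IFI44 fell, with log2 fold changes of -1.74 to -2.22 (SE 0.0808 to 0.0832, largest edgeR adjusted p = 1.25e-12). XAF1, which binds the caspase inhibitor XIAP (chr17:6755447-6775647, plus strand), was read at 17.8, 19.9 and 22.3 CPM in the CTRL libraries, 21.1, 22.1 and 24.8 in those of hnCD16, 4.69, 5.72 and 6.11 in FR1 and 3.69, 4.75 and 5.72 in FR2. XAF1 fell, with log2 fold changes of -1.86 to -2.26 (SE 0.129 to 0.133, largest edgeR adjusted p = 3.68e-10). EPSTI1 was read at 13.1, 13.4 and 11.8 CPM in FR1 and 11.9, 11.9 and 12.5 in FR2, beside 23.3, 21.2 and 20.6 in CTRL and 28.2, 25.2 and 26 in hnCD16. All its FR libraries lay below the others, and it was called against hnCD16 alone, -1.05 (SE 0.0758, edgeR adjusted p = 5.43e-10) in FR1 and -1.13 (SE 0.0762, edgeR adjusted p = 1.98e-10) in FR2, with -0.77 and -0.85 against CTRL. Without FR1 replicate 3 the change in FR1 against hnCD16 fell just short of the limit. IFI44L had 3 to 12 counts a library and was called in FR2 against CTRL, 1.38 (SE 0.416, edgeR adjusted p = 0.00567). Without CTRL replicate 3 it was also called in FR1 against CTRL (1.49) and in hnCD16 against CTRL (1.62). IFI27 had 0 to 6 counts a library and was not tested.

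Members that lie close together did not always share a direction. On GENCODE gene positions (GRCh38), 20 of the 43 genes lay in 8 groups with gaps of at most 100 kb, and 2 of these groups held both a gene that rose and a gene that fell in FR1 against CTRL. The first was the IFIT group, where IFIT1 ended 8080 bases before IFIT5. The second was the OAS group on chromosome 12, where OAS3 stands 1934 bases before OAS2. In the HERC group, HERC5 fell and HERC6, 14021 bases away, was called higher in FR2 against hnCD16. In contrast, CMPK2 and RSAD2 both fell, and IFITM1, IFITM2 and IFITM3 all rose. Of all genes tested, 18.3% were higher and 19.8% lower in FR1 against CTRL. How often neighbours among all genes split in direction was not measured.

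Among 15 other sensors and kinases of the pathway analysed here, 4 rose and 2 fell in FR1 against CTRL and 3 rose and 3 fell in FR2 against hnCD16. The 6 of 15 called in each were near the share of all genes (38.0% and 39.5%). TBK1, the kinase of IRF3, rose by 1.83 to 2.71 log2 units (SE 0.0947 to 0.0978, largest edgeR adjusted p = 4.34e-12). STING1, the adaptor of DNA sensing, rose by 1.8 to 2.14 log2 units (SE 0.0904 to 0.0937, largest edgeR adjusted p = 4.93e-12). ZBP1, a sensor of left-handed nucleic acid, rose by 2.06 to 2.39 log2 units (SE 0.21 to 0.215, largest edgeR adjusted p = 6.21e-08). DDX58, the RNA sensor RIG-I, fell in 3 of 4 comparisons, with -1.23 in FR1 against CTRL and -0.96, not called, in FR2 against CTRL. TLR3, a receptor for double-stranded RNA, was called in FR1 against CTRL alone (1.36), and IRF5, an interferon regulatory factor with 1 to 17 counts a library, fell in FR2, with -1.57 against hnCD16. TLR9, a receptor for CpG DNA, fell, with log2 fold changes of -3.09 to -4.72 (SE 0.256 to 0.325, largest edgeR adjusted p = 9.12e-09). Of 6 brakes, 3 rose and 1 fell in FR1 against CTRL, beside 38.0% of all genes called. SOCS3, an inhibitor of JAK kinases, had 2165 to 2366 counts in FR1 and 3096 to 3362 in FR2, beside 0 to 2 in CTRL and 2 to 7 in hnCD16. At these few counts it was also called higher in hnCD16 against CTRL, 2.68 (SE 0.764, edgeR adjusted p = 0.00924), the 1 call of the pathway lists in that comparison. SOCS1, its relative, had 377 to 601 counts in FR1 and FR2 and 3 to 10 in the others, and rose by 6.29 to 6.66 log2 units (SE 0.209 to 0.222, largest edgeR adjusted p = 1.45e-14). PIAS1, a SUMO ligase, rose by 1.4 to 1.69 log2 units (SE 0.0574 to 0.0578, largest edgeR adjusted p = 1.66e-13), and PTPN6, the phosphatase SHP-1, changed by -1.48 in FR1 against CTRL.

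Per length, the order of the genes shifted between the pairs. In TPM, which divides by transcript length, IFITM1 was first in every group, at 797 in FR1, 1431 in FR2, 237 in CTRL and 254 in hnCD16. ISG15 stood at 128 and 125 TPM in CTRL and hnCD16 and at 66.5 and 77.6 TPM in FR1 and FR2, and moved from place 3 to place 8. IFI16 stood at place 2 or 3 in every group, whereas BST2 moved from place 9 in CTRL and hnCD16 to place 4 in FR1 and FR2. Summed over the 43 genes, the level was 3477 ± 97.7 TPM in FR1 and 4487 ± 31.1 in FR2, beside 1087 ± 50.7 in CTRL and 1070 ± 33 in hnCD16 (SD, n = 3). The sum was dominated by IFITM1, IFITM2, IFI16 and BST2 in FR1 and FR2, and the split of reads among the IFITM genes is uncertain.

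Within the pairs the set was nearly level. In hnCD16 against CTRL, 0 of 41 genes were called by edgeR, beside 0.527% of all genes. DESeq2 and limma also called 0, and 16 of 41 genes had an unadjusted p under 0.05, beside 6741 of all 13657, a larger share. By adjusted p alone, 13 of 41 passed (31.7%), beside 43% of all genes. The largest of these changes was that of IRF7, -0.84 (SE 0.2, edgeR adjusted p = 0.00298). OAS3 differed by -0.53, ADAR by -0.4, RSAD2 by 0.5, IFIT1 by 0.37, IFI44 by 0.34 and EPSTI1 by 0.28. STAT2, LGALS3BP, IFITM1, IFI16, IFITM2 and HERC5 lay between -0.25 and 0.25. IRF7, OAS3, ADAR and STAT2 had an adjusted p of at most 0.05 under every alternative tried, and the others did not. IFIT1, for example, had an adjusted p of 0.0914 with DESeq2, 0.0916 with library size alone, 0.154 to 0.256 with limma on TPM, and 0.0697, 0.0957 and 0.059 by edgeR without CTRL replicate 2, hnCD16 replicate 2 and hnCD16 replicate 3. All of these changes were under the fold limit.

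In FR1 against FR2, 1 of 41 genes was called (2.44%, beside 1.93% of all genes), and 12 passed by adjusted p alone (29.3%, beside 36.2%). The called gene was DDX60, which was higher in FR1, 1.12 (SE 0.353, edgeR adjusted p = 0.0193), with 53, 60 and 63 counts in FR1 and 27, 31 and 24 in FR2. Its libraries did not overlap. Without FR1 replicate 2, FR1 replicate 3, FR2 replicate 1 or FR2 replicate 3 its adjusted p was 0.0561, 0.0551, 0.075 or 0.0604, and limma on TPM did not call it. Among the rest, IFITM1 (-0.83, edgeR adjusted p = 6.18e-08), ISG20 (-0.74), STAT2 (-0.53), IFITM2 (-0.47), IFITM3 (-0.46), OASL (-0.33), IFI6 (-0.21) and BST2 (-0.13) were lower in FR1, and PARP14 (0.26), PARP9 (0.25) and EIF2AK2 (0.22) were higher, all under the fold limit.

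**Figure D4:**
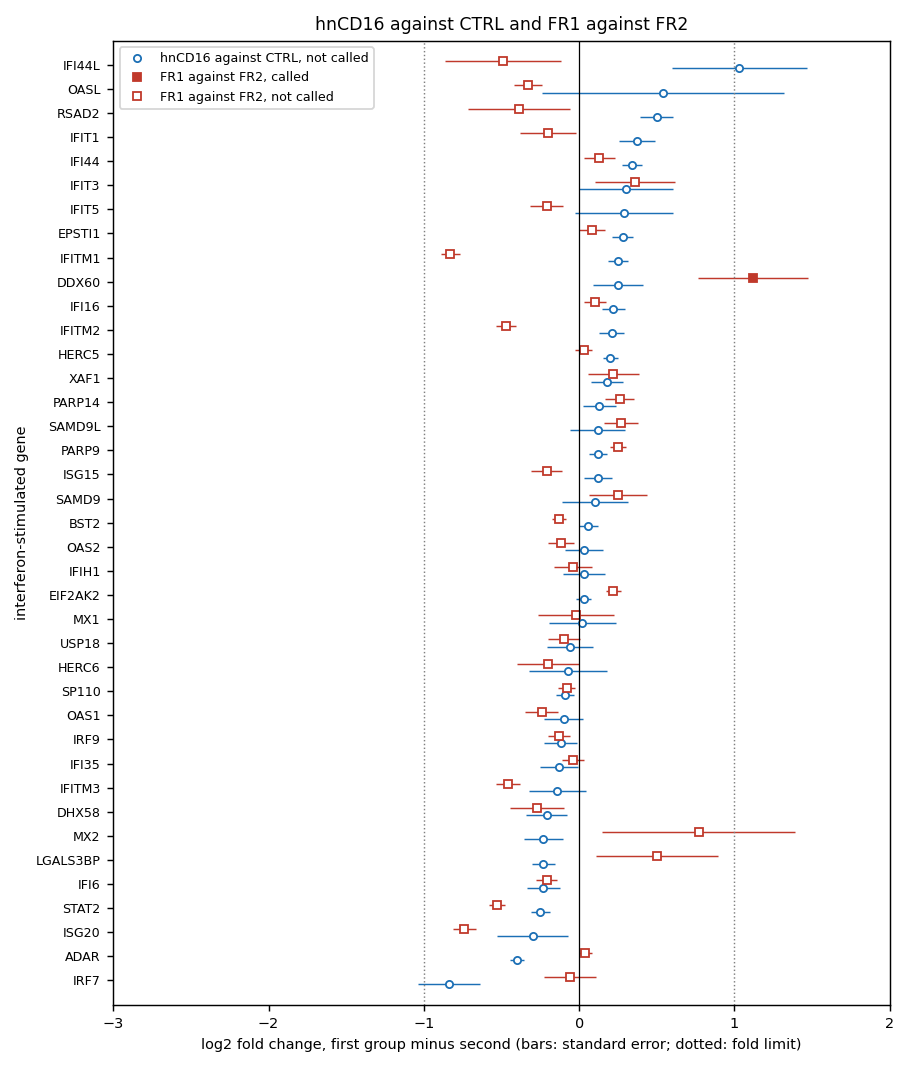
Points give the log2 fold change with its standard error of 39 genes in hnCD16 against CTRL (circles) and in FR1 against FR2 (squares), filled where called, and dotted lines mark the fold limit. CMPK2 and OAS3 are left out because they were at 0 to 3 counts in both FR groups. DDX60 is the only filled point.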

How the data were processed

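RNA-seq was analysed in 12 libraries of YT cells, 3 each of CTRL, hnCD16, FR1 and FR2, grouped by GEO's labels. Per the labels and methods, the authors prepared RNA (both ribosomal depletion and oligo(dT) enrichment are named), mapped reads to GRCh38.p13 with HISAT2 2.1.0, and quantified genes with RSEM 1.3.1, and the submitters' processing notes also name Bowtie2 2.3.4.3 and DESeq2 1.4.5. The authors deposited expected counts, which RSEM divides among genes and transcripts that share reads, and TPM, which is scaled to length and library. Whether the counting used strand is not given in the sources used here. Only expected counts and TPM were used, and 24 columns of FPKM and normalised counts per library and the authors' group means were not.

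Expected counts were rounded and fitted over all genes in edgeR 4.0.16 (R 4.3.3, TMM, filterByExpr, quasi-likelihood) with 1 fit of 4 groups. A call needed a log2 fold change of at least 1 in either direction and p of at most 0.05 after Benjamini-Hochberg adjustment, the limits of the study's methods. Libraries held 17714550 to 18729013 counts, and 3 counts were 0.149 to 0.174 CPM, the floor for a gene at 0. Alternatives were limma 3.58.1 on TPM (logged after adding 1 or 0.1), DESeq2 1.42.0, other normalizations and filters, a replicate block and each library left out. The fit was tested on simulated data. Genes called at least once with a mean of at least 1 CPM were given in full, up to 30, and others by range. The gene set, the pathway and marker lists and this rule were chosen with earlier results of these data known. One gene of the pathway list is not reported here. Samples with the same replicate number correlated at -0.102 to 0.404, not above 0.1 in every pair, so they were taken to share only a number. In hnCD16 against CTRL these correlations were higher (0.0196 to 0.404, mean 0.254), beside means of -0.0349 to 0.0869 in the other comparisons. Whether same-numbered libraries of these groups shared a batch was not tested.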

Additional observations from a re-analysis of the deposited data

Results flagged for a closer look

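DDX60 differed between FR1 and FR2 by 1.12 on the log2 scale, a direct test of FR1 against FR2 (edgeR adjusted p = 0.0193). The log2 fold changes behind it, both relative to hnCD16, were -2.85 (FR1) and -3.97 (FR2). The call was lost without FR1 replicate 2, FR1 replicate 3, FR2 replicate 1 or FR2 replicate 3, and with limma on TPM. The cause was not tested.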

How the results depend on the processing

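No call of a gene in the set reversed direction. Over all alternatives and genes, 3836 values kept their side of the limits, 56 lost the call and 18 gained it. Leaving out each library in turn gave 29 to 32 calls in FR1 against CTRL, 30 to 32 in FR2 against CTRL, 30 to 33 in FR1 against hnCD16 and 32 to 33 in FR2 against hnCD16. The other alternatives that kept the fold limit gave 27 to 31, 27 to 32, 29 to 32 and 29 to 33. In hnCD16 against CTRL, dropping the fold limit gave 13 calls and leaving out a library gave 0 to 1 (IFI44L without CTRL replicate 3, log2 fold change 1.62, adjusted p = 0.0175 by edgeR). In FR1 against FR2, dropping the fold limit gave 12 calls, limma on log2(TPM + 1) gave 0 with and without a filter on low TPM, and leaving out a library gave 0 to 1. The genes that crossed a limit in at least 1 alternative were IFIT1, IFIT3, DHX58, OAS1, DDX60, ADAR, SAMD9, HERC6, IRF7, STAT2, EPSTI1 and IFI44L. Scaling by library size alone shifted the median of all genes by -0.19 in FR1 against CTRL, by -0.13 in FR2 against CTRL and by -0.11 in hnCD16 against CTRL, where the higher share of all calls went from 40.3% to 23.2%. With the replicate block, FR1 against hnCD16 had 32 calls (HERC6 added) and the other counts were as before. Genes near 0, such as OASL, MX2 and IFIT3, are limited by depth.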

Other observations

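In CTRL and hnCD16, SAMD9 was lowest in replicate 1 and highest in replicate 3, at 15.7 to 30.9 CPM and 17.5 to 34.5 CPM. DDX60 ranged from 14.2 to 25.3 CPM in CTRL and from 20.7 to 30.6 CPM in hnCD16, with the same lowest and highest replicates. PARP14, IFI16, XAF1, IFIH1 and EIF2AK2 had these lowest and highest replicates in both groups too. Among 36 genes of the set above 1 CPM, replicate 3 was highest for 15 in CTRL and 13 in hnCD16. Replicate 1 was highest for 9 in CTRL and 14 in hnCD16. For genes of the set above 1 CPM, the median ratio of highest to lowest library was 1.1 in FR1 and FR2, 1.14 in CTRL and 1.19 in hnCD16.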
